A study of Mus musculus with 32 samples.

Results

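Mouse E14 embryonic stem cells that overexpressed mutated CTCF were compared with cells that overexpressed wild-type CTCF, both titled as grown without indole-3-acetic acid (IAA). RNA sequencing was available for 2 libraries of each, and these 4 libraries belong to a table of 12 libraries in 6 groups, out of 32 samples in the series. Of the 14970 genes in that table, the 13938 with a mean value of at least 10 over the 12 libraries were tested. Every group carried the CTCF AID genotype, in which the cell's own CTCF bears an auxin-inducible degron and is removed after IAA is added, at 500 µM, and the control group is labelled overexpressed control. The other groups used here were the control without IAA, and the control, wild-type and mutated groups with IAA for 12 h, again with 2 libraries each. The cells grew in serum-free medium with LIF, PD0325901 and CHIR99021, so the comparison concerns stem cells held in a naive state. The labels do not say which residues of CTCF were mutated, nor whether the 2 libraries of a group came from separate cultures or from 1 clone, so the p-values measure only the spread between these libraries, which may be technical.

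CTCF is a zinc finger protein that binds a long DNA motif, halts the cohesin complex as it extrudes chromatin loops, and so sets the ends of loops and of topological domains. It also binds at many promoters. In embryonic stem cells its loss is known to remove most loops at once while altering the transcription of a limited set of genes. In the libraries without IAA the overexpressed form is present beside the cell's own CTCF.

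The labels conflict for 4 libraries. Both libraries titled mutated CTCF without IAA carry a treatment label of 12 h of IAA, and both titled wild-type CTCF with IAA carry a label of no treatment. The groups below follow the titles. By the treatment labels there would be no untreated mutated library and the comparison could not be made. Cyp1a1, a detoxifying enzyme switched on by the aryl hydrocarbon receptor, for which indole compounds are ligands, gives a check. Its normalised count was 142 and 138 in the mutated libraries without IAA, 107 and 94.8 in the wild-type libraries without IAA and 109 and 105 in the control. With IAA it was 883 and 833 in the control, 833 and 946 with wild-type and 1553 and 1429 with mutated CTCF. All 6 libraries titled with IAA therefore stood far above all 6 titled without it, including the 4 whose labels conflict. The mutated libraries without IAA were still above the wild-type ones, with a log2 difference of 0.47 ± 0.10 (SE) and an adjusted p of 0.0218, a call that was lost when wild-type replicate 2 or either mutated library was left out (highest adjusted p 0.119). Among the other targets of the receptor, Cyp1b1 had 14.5 and 7.00 against 5.41 and 7.29 and did not pass limma's test (adjusted p = 0.324). Ahrr and Tiparp did not pass it either (adjusted p = 0.445 and 0.725). Nqo1, a quinone reductase, was higher by 0.25 ± 0.042 (adjusted p = 0.00586). Of 10 receptor genes tested, 2 were called, against 6.23% of all tested genes. Their differences were split, 5 positive and 5 negative, with a median of 0.03. With the 4 libraries alone in the fit, 0 of the 10 were called.

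Ctcf stood above the control with both constructs. It had 9589 and 9712 normalised counts with the mutated and 9275 and 9481 with the wild-type construct, against 4134 and 4332 in the control. The log2 difference of mutated minus wild-type was 0.041 ± 0.032 (adjusted p = 0.502), and the counts do not separate the construct from the cell's own gene. None of 19 tested genes for CTCF, cohesin and its regulators was called, against 6.23% of all tested genes. Rad21, the cohesin subunit cleaved at mitosis, had 9868 and 9959 against 9954 and 9309, and Wapl, which releases cohesin from DNA, had 8214 and 8046 against 7817 and 7999.7.

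Summed normalised counts, which the normalisation itself brings together, ran from 19073890 to 19546135. The replicates of a group correlated at 0.985 to 0.989 across genes on the log2 scale. All 7 embryonic stem cell markers checked were in the table, summing to 93311 to 94025 in the mutated and 93905 to 94720 in the wild-type libraries. Of 9 fibroblast markers 3 were in the table, with Col1a2, Col3a1, Acta2, Lum, Dcn and Postn absent, and the sum was 70.1 to 104 in the mutated against 120.3 to 141 in the wild-type libraries. The neural markers present, 3 of 6, summed to 1823 to 1939 in the mutated and 1271 to 1299 in the wild-type libraries. Pax6 and Dcx were among those absent. The part of other cell types in the differences below was not tested. A feature shared by replicates was seen in the groups titled without IAA. In all 3 of them, 134 genes were at least 0.5 higher (log2) and 52 at least 0.5 lower in replicate 2 than in replicate 1. In the comparison below 0 of these genes were called. Such a gap adds to the spread that the test uses, so a call was unlikely from the outset. The count does not show whether the feature affects other genes.

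The libraries with mutated and with wild-type CTCF differed in many genes, mostly by small amounts. With 2 libraries of each, an effect of the form cannot be told apart from one of clone or culture. By limma's test on log2(value + 1), with Benjamini-Hochberg adjusted p under 0.05 taken as a call, 868 of 13938 genes (6.23%) differed, 487 higher with mutated CTCF (3.49%) and 381 lower (2.73%). The median size of a called difference was 0.30 on the log2 scale, or 1.23-fold. The medians were 0.27 for the higher and -0.33 for the lower genes, and 50 called genes differed at least 2-fold, 24 up and 26 down. The count fell to 479 without wild-type replicate 1, 415 without wild-type replicate 2, 376 without mutated replicate 1 and 360 without mutated replicate 2. It was 216 when the fit held these 4 libraries alone, and 427 when the variance was not allowed to follow the mean.

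**Figure D1:**
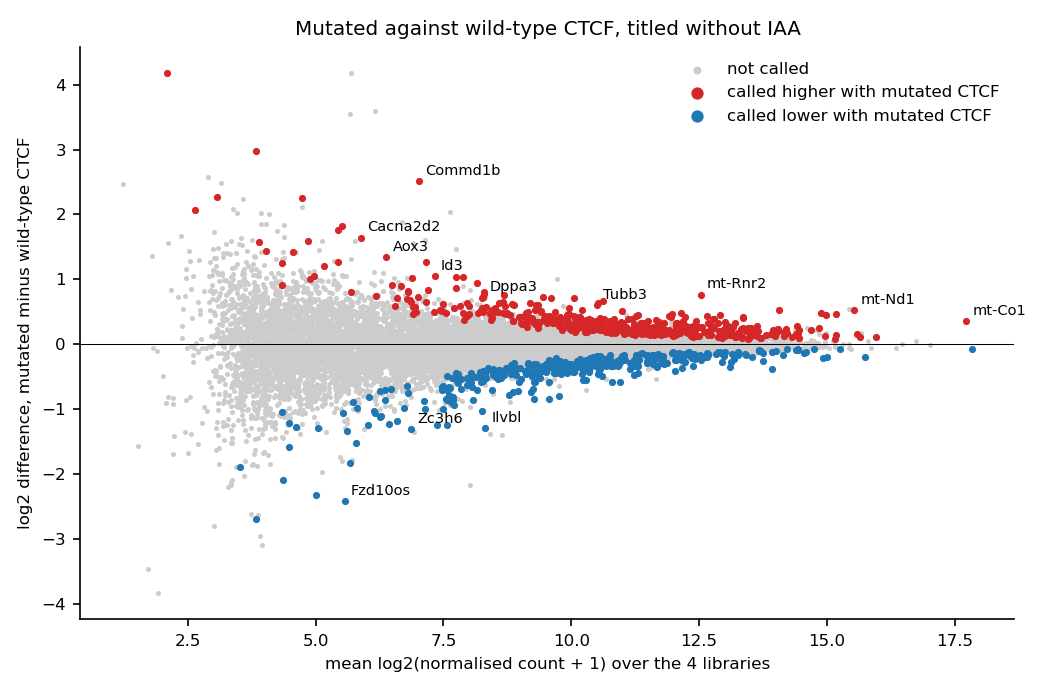
Each point is a gene, with its mean log2(normalised count + 1) over the 4 libraries on the x axis and the log2 difference of mutated minus wild-type CTCF without IAA on the y axis. The 487 genes called higher are red and the 381 called lower are blue, and most called genes lie within 1 log2 unit of 0.

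To be named among the largest changes, a called gene needed an average of 100 or more in its higher group, a symbol that is not provisional and libraries of the 2 groups that do not overlap, as was true of 50.5% of all tested genes. There were 451 such rises and 357 such falls. The 15 largest rises ran from 2.52 to 0.80 on the log2 scale. Commd1b, annotated at a locus that overlaps the copper-handling gene Commd1 (chr11:22834744-22982090 in GRCm38), led them. It had 257 and 373 normalised counts in the mutated and 39.3 and 71.9 in the wild-type libraries, a log2 difference of 2.52 ± 0.34 (adjusted p = 0.00207). The control had 225 and 219.6, so here it was the wild-type libraries that stood low. Its exons overlap those of Commd1 and B3gnt2 on the same strand, so the split of reads between these genes is uncertain. H1f10, a linker histone, had the same shape, with 320.3 and 291 against 155 and 142 and 342 and 287 in the control (1.04 ± 0.16, adjusted p = 0.00475). It overlaps Gm47286 on the same strand and Gm5577 on the opposite strand.

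A second group of rises lay above both the wild-type and the control libraries. Aox3 is an aldehyde oxidase (chr1:58113130-58200698). It had 103 and 169 in the mutated, 47.2 and 55.9 in the wild-type and 51.4 and 46.8 in the control libraries, a 2.54-fold difference (log2 1.34 ± 0.24, adjusted p = 0.00849). The mutated libraries lay wholly above the other 4, though they differed from each other, and without wild-type replicate 1 or mutated replicate 2 the call was lost (highest adjusted p 0.0608). Aoah, an enzyme that removes fatty acids from bacterial lipopolysaccharide (chr13:20794113-21036617), had 294 and 287 against 152 and 165, with 138 and 140.2 in the control (0.87 ± 0.10, adjusted p = 0.000734). Syce1, a component of the meiotic synaptonemal complex (chr7:140777229-140787852), had 349 and 444 against 206 and 204, with 216 and 205 in the control (0.94 ± 0.13, adjusted p = 0.00253). Both kept their calls when any of the 4 libraries was left out. Id3, an inhibitor of helix-loop-helix factors and a target of BMP signals (chr4:136143497-136145755), had 248 and 213 against 121 and 101 and 117 and 91.0 in the control (1.05 ± 0.19, adjusted p = 0.0108). That call was lost without wild-type replicate 2 or mutated replicate 1, with the difference from 0.92 to 1.17 over the 4 left-out fits. Pla2g4e, a cytosolic phospholipase, had 424 and 401 against 275 and 204 (0.80 ± 0.13, adjusted p = 0.00526).

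The Aox3 promoter is shown because it alone, among the 27 named rises and falls with a RefSeq promoter entry, held a match to the core of the CTCF consensus, searched by that motif on both strands in the 250 bases before the start. The bases are chr1:58112886-58113135 on the plus strand (RefSeq, GRCm38.p6), and the capitals mark the match, which lies on the opposite strand and begins 149 bases before the start.
Aox3: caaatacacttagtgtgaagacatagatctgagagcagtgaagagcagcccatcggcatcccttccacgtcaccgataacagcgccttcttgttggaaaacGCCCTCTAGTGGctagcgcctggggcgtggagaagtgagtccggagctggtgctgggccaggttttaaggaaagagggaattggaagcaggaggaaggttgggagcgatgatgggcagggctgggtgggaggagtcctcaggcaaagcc
Such matches were rare in every group of genes. A match was found before 2 of 393 genes called higher (0.509%), 2 of 295 called lower (0.678%) and 81 of 10299 tested genes (0.786%), against 167 of all 32851 promoter entries (0.508%). A match describes these letters only and does not show that CTCF binds there.

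The remaining rises were of mixed function. Cacna2d2, an auxiliary subunit of calcium channels, had 84.9 and 127 against 29.2 and 36.2 (1.64 ± 0.33, adjusted p = 0.0151), but the control libraries, at 60.2 and 118, overlapped the mutated ones. Sstr2, a somatostatin receptor, had 128 and 119.8 against 75 and 56.2 (0.92 ± 0.18, adjusted p = 0.0133). Spaca6, a sperm membrane protein, and Nlrp4c, an NLR family member with many near-identical relatives, had differences of 0.89 and 0.80. The kinase gene Cdkl2, the zinc finger gene Zfp566, Ndor1, a flavin oxidoreductase, and Parm1 had 1.03, 1.03, 0.84 and 0.83. Exons of Zfp566, Cdkl2, Spaca6, Pla2g4e, Cacna2d2 and Ndor1 overlap other annotated genes, and counting by strand is not given in the sources used here. Of the 15 rises, 6 (Commd1b, H1f10, Cdkl2, Syce1, Aoah and Pla2g4e) kept their call in all 4 fits that leave out a library. The other 9 lost it in at least 1 of them, Ndor1 in all 4.

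**Figure D2:**
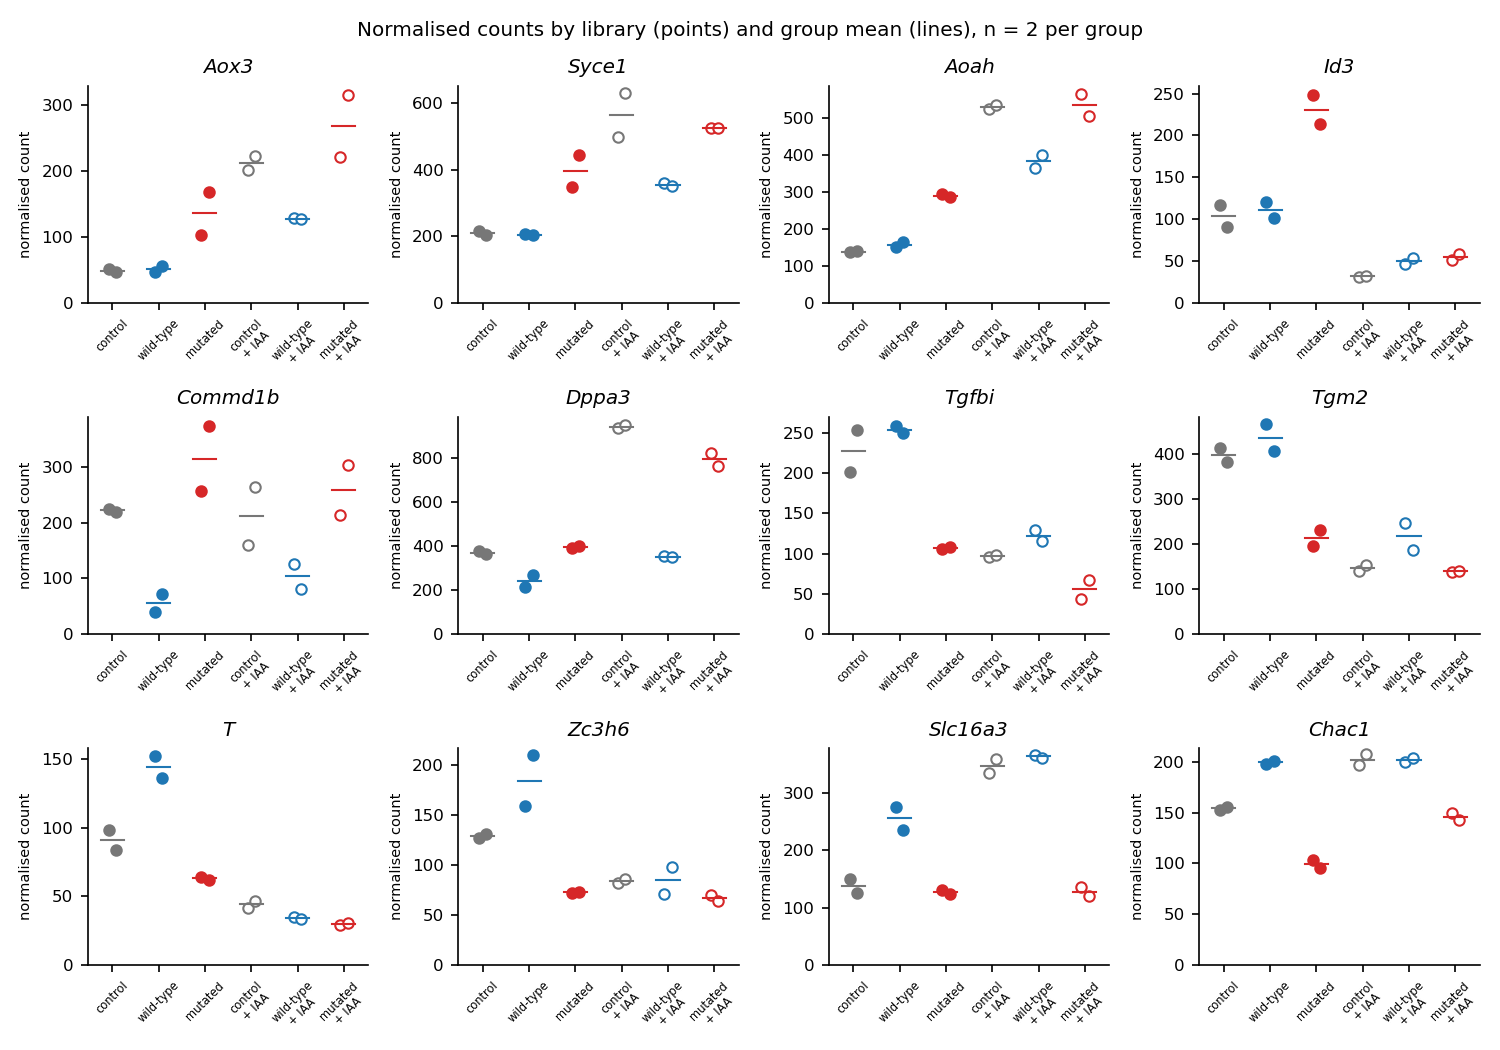
Normalised counts (y axis, from 0) of 12 genes in every library of the 6 groups, filled points without IAA and open points with IAA, with group means as lines. Aox3, Syce1, Aoah and Id3 stand higher in the mutated than in the wild-type and control libraries without IAA, and Tgfbi, Tgm2, T, Zc3h6 and Chac1 stand lower than in both.

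The largest falls ran from -2.42 to -0.88. Tgfbi, a secreted matrix protein induced by TGF-beta (chr13:56609523-56639562), had 106 and 108 in the mutated against 259 and 249 in the wild-type and 201 and 253 in the control libraries (-1.24 ± 0.20, adjusted p = 0.00512). Tgm2, a transglutaminase that cross-links proteins (chr2:158116402-158146436), had 195 and 231 against 467 and 408 and 414 and 382 in the control (-1.03 ± 0.15, adjusted p = 0.00295). It overlaps Rprd1b and Gm20412 on the opposite strand. T, the brachyury factor of early mesoderm (chr17:8434423-8442496), had 64.5 and 61.9 against 152 and 137 and 98.4 and 84.1 in the control (-1.18 ± 0.19, adjusted p = 0.00527). In all 3 genes the mutated libraries lay below both other groups without overlap.

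Zc3h6, a CCCH zinc finger gene, had 72.5 and 73.5 against 159 and 209.6, with 127 and 131 in the control (-1.31 ± 0.19, adjusted p = 0.00354), and overlaps Gm14027 and Gm10762. Tinagl1, a secreted matrix glycoprotein, had 63.1 and 43.3 against 113 and 114 (-1.10 ± 0.18, adjusted p = 0.00622). The long noncoding RNA Fzd10os had the largest fall, 33.4 and 11.2 against 72.8 and 162 (-2.42 ± 0.50, adjusted p = 0.0176), with replicates far apart in both groups. Ilvbl had 238 and 174 against 788 and 317, so its difference of -1.29 rested on wild-type replicate 1, without which it was -0.64 (adjusted p = 0.110). LTO1 (which overlaps Ccnd1 on the opposite strand), Agpat4, Fggy, Prrg1, Aamdc and Rims3 fell by 1.24, 1.24, 1.05, 1.03, 0.98 and 0.88 on the log2 scale. Of the 15 falls, 7 (Zc3h6, Tgfbi, T, Tinagl1, Tgm2, Slc16a3 and Chac1) kept their call with any of the 4 libraries left out, and Fggy and Prrg1 lost it in all 4 fits.

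Slc16a3 and Chac1 each belong to a list in which several members were lower with mutated than with wild-type CTCF. Slc16a3 exports lactate from glycolytic cells and is a target of the hypoxia-inducible factors (chr11:120948480-120960868). It had 131 and 123 in the mutated and 275 and 235 in the wild-type libraries (-0.998 ± 0.13, adjusted p = 0.00193). The control had 149.6 and 125, so the wild-type libraries stood above both other groups. Over the list of hypoxia and glycolysis genes, 11 of 34 tested rows were lower with mutated than with wild-type CTCF and 2 were higher. Of all tested genes 2.73% were lower and 3.49% higher. The other 21 did not pass the test. The median was -0.15, against -0.002 over all tested genes. Relative to the control, the median of the list was 0.14 with wild-type and 0.02 with mutated CTCF. Over the list it was thus the wild-type libraries that stood apart from the control. Aldoa has 2 rows in the table, and 33 symbols were tested. The lower members included glycolytic enzymes at high levels, Ldha (7618 and 7604 against 8507 and 8673, -0.17 ± 0.029, adjusted p = 0.00622) and Pgk1 (9211 and 9277 against 10496 and 10215, -0.16 ± 0.025, adjusted p = 0.004). Slc2a3, a glucose transporter, fell by 0.19 (adjusted p = 0.000172). Bnip3, a mitophagy receptor, had 507 and 577 against 762 and 721 (-0.45 ± 0.11, adjusted p = 0.0385), and Vegfa, the angiogenic growth factor, 738 and 690.0 against 968 and 889.7 (-0.38 ± 0.086, adjusted p = 0.027). The control libraries had 536 and 455 for Bnip3, close to the mutated ones, and 896 and 879 for Vegfa, close to the wild-type ones. Both calls were lost in each of the 4 fits that left out a library (highest adjusted p 0.201 and 0.150). The members that rose were Kdm3a, a histone demethylase, with 5583 and 5531 against 4159.6 and 4126 (0.42 ± 0.047, adjusted p = 0.000683), and Ak4, an adenylate kinase (0.26 ± 0.046, adjusted p = 0.00807). The count of falls was 5 without wild-type replicate 1, 5 without wild-type replicate 2, 4 without mutated replicate 1 and 6 without mutated replicate 2. It was 3 with these 4 libraries alone and 5 without the mean trend. With IAA, in other libraries of the same fit, 21 members were lower with mutated CTCF and 0 higher, with a median of -0.26. Of all tested genes 1.18% were lower.

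Chac1, which degrades glutathione and is a target of ATF4 (chr2:119351229-119354381), had 104 and 95.4 in the mutated, 198 and 201 in the wild-type and 153 and 155 in the control libraries (-0.997 ± 0.11, adjusted p = 0.000883). The 3 groups did not overlap. Of 25 genes of the integrated stress response, the pathway through which phosphorylated eIF2 and ATF4 respond to amino acid and protein-folding stress, 9 fell, 0 rose and 16 did not pass the test, with a median of -0.19, while 2.73% of all tested genes fell. Nupr1, a small stress-induced regulator, had 409.6 and 411 against 619 and 609 (-0.58 ± 0.062, adjusted p = 0.000533). Ddit4, an inhibitor of mTORC1, had 507 and 497 against 772 and 730.3 (-0.58 ± 0.077, adjusted p = 0.00193). Phgdh and Psat1, enzymes of serine synthesis, fell by 0.32 and 0.12, Asns, which makes asparagine, by 0.10 and Atf4 itself by 0.18 (adjusted p = 0.0066, 0.0163, 0.0145 and 0.0166). The count was 5 without wild-type replicate 1, where 1 member also rose, and 5 without mutated replicate 2, while it was 6 without either other library. It was 3 with the 4 libraries alone and 5 without the mean trend. The call for Phgdh was among those lost with a library left out. With IAA, 4 members were lower and 0 higher, while 1.18% of all tested genes were lower.

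The promoters of these targets are shown with the motifs of the factors known to act on the lists. For Slc16a3 the capitals mark the core of the hypoxia response element, ACGTG, which occurs on the same strand 27 and 14 bases before the start, and for Chac1 the composite ATF4 and C/EBP element, TGATGNAA, on the opposite strand 193 bases before it. Both are the 250 bases before the RefSeq start in GRCm38.p6, chr11:120948817-120949066 and chr2:119350992-119351241, plus strand.
Slc16a3: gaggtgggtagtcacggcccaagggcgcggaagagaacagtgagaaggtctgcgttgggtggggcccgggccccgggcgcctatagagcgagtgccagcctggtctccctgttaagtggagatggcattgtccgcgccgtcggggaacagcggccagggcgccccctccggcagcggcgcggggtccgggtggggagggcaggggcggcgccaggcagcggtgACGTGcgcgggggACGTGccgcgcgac
Chac1: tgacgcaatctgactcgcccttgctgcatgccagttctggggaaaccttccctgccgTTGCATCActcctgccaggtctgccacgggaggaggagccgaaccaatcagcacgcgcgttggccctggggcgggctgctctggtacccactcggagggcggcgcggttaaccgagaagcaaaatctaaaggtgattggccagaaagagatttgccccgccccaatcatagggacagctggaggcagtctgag
ACGTG was found, on either strand, before 7 of the 9 hypoxia and glycolysis genes called lower with an entry (Slc16a3, Bnip3, Vegfa, Ldha, Pgk1, P4ha1 and Aldoa), before 16 of 28 tested members of that list and before 25.1% of all tested genes. The composite element was found before 3 of the 9 stress response genes called lower (Chac1, Asns and Nupr1), 7 of 21 tested members and 2.28% of all tested genes. The shares over all promoter entries were 16.6% and 3.45%. In both lists, members that were not called lower carried the motif as well.

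Most transcripts of the mitochondrial genome were higher with mutated CTCF. Of the 13 protein-coding genes, which encode subunits of the respiratory chain and ATP synthase, 8 rose and 0 fell. Of all tested genes 3.49% rose and 2.73% fell. All 13 differences were positive, with a median of 0.45. Mt-Nd1, a subunit of complex I, had 56127 and 57388 in the mutated against 40080.0 and 39035 in the wild-type and 36763 and 35870.2 in the control libraries, a log2 difference of 0.52 ± 0.019 (mt-Nd1, adjusted p = 3.44e-07). For mt-Cytb, of complex III, the values were 43542 and 43607 against 31948 and 31279 and 31655 and 30885 (0.46 ± 0.018, adjusted p = 3.52e-07). For the large ribosomal RNA mt-Rnr2 they were 7550.1 and 7893 against 4442 and 4642 and 4147 and 4473 (0.77 ± 0.049, adjusted p = 1.75e-05). In each of these genes the mutated libraries lay above the other 4. With the ribosomal RNAs, 10 of 15 chromosome M genes were called (66.7%), while the median difference of every autosome and of X lay between -0.024 and 0.015. On chromosome Y, with 13 genes tested, the median was 0.26 and 1 gene was called (7.69%, against 6.23% of all tested genes).

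These transcripts come from shared precursors and are not independent of each other. The genes of chromosome M made up 2.84 to 3.08% of summed counts in the mutated, 2.27 to 2.39% in the wild-type and 2.07 to 2.19% in the control libraries. The number of calls was 7 or 8 in every fit that left out a library, and 7 with the 4 libraries alone. Mt-Co2 was not called: it had 19471 and 38653 in the mutated and 16351 and 32191 in the wild-type libraries (mt-Co2, adjusted p = 0.744), with replicate 2 far above replicate 1 in both groups and in the control (15416 and 29824), and no such gap in the groups with IAA. With IAA the picture differed, with 1 of the 13 genes higher, 3 lower and a median of -0.05. Of all tested genes 1.08% were higher and 1.18% lower with IAA. The change in the difference itself passed the test for mt-Cytb (-0.60 ± 0.025, adjusted p = 9.13e-07) and mt-Nd1 (-0.37 ± 0.026, adjusted p = 0.000111).

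**Figure D3:**
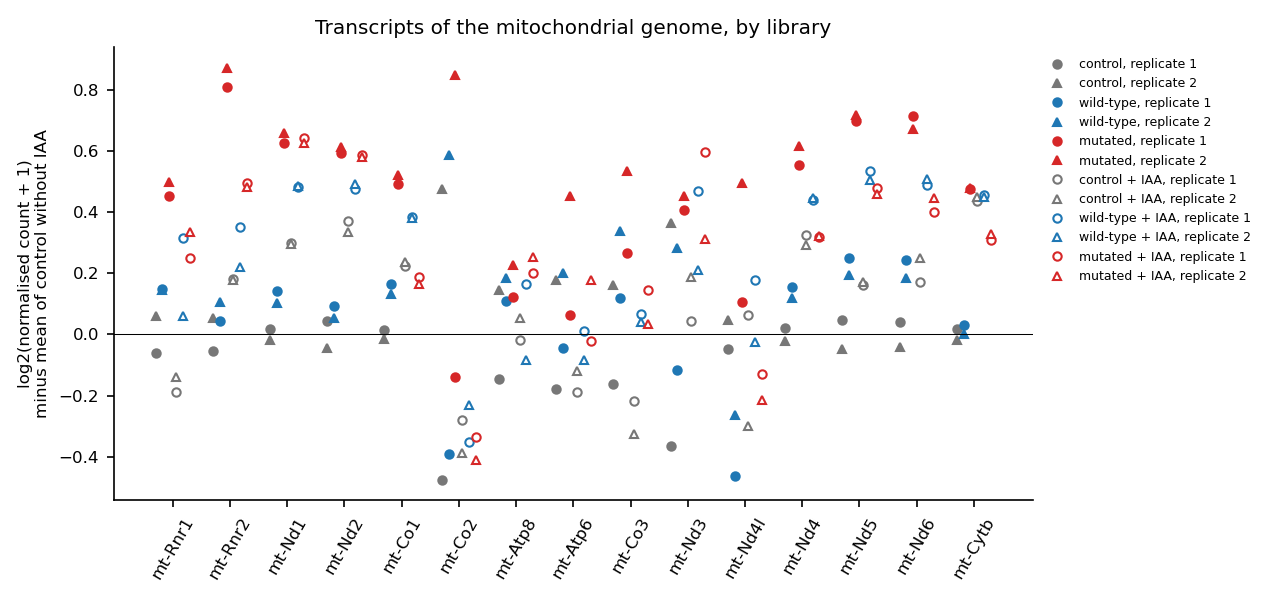
Log2(normalised count + 1) of the 13 protein-coding and 2 ribosomal RNA genes of the mitochondrial genome in each library, as the difference from the mean of the control without IAA. Circles are replicate 1, triangles replicate 2, and open symbols the libraries with IAA. The mutated libraries without IAA are the highest for genes such as mt-Rnr2 and mt-Nd5, and mt-Co2 separates by replicate in the groups without IAA.

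Pluripotency genes were called in both directions. Among 18 naive pluripotency genes, 2 rose and 2 fell (22.2% called, against 6.23% of all tested genes), and the median was 0.02. Dppa3, which protects DNA methylation in the early embryo (chr6:122626410-122630272), had 393 and 402 with mutated and 216 and 267 with wild-type CTCF, and 376 and 363 in the control (0.72 ± 0.10, adjusted p = 0.0022), so the wild-type libraries were the low ones. Zfp42 rose by 0.21, while Dppa5a fell by 0.21 and Tfcp2l1 by 0.08 (adjusted p = 0.00692, 0.000426 and 0.0212). Among 16 core and formative genes 3 rose and 0 fell (18.8% called), Zic2 by 0.40, the methyltransferase gene Dnmt3b by 0.39 and Sall4 by 0.22 (adjusted p = 0.0116, 0.00191 and 0.015). Dppa3, Dppa5a and Dnmt3b kept their calls with each library left out, while Zfp42, Tfcp2l1, Zic2 and Sall4 did not.

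Dnmt3b was also 1 of 4 DNA methylation genes, of 15, that rose, with none falling, while 3.49% of all tested genes rose and 2.73% fell. The median of the list was 0.04, and 2 of the 15 were called when the fit held the 4 libraries alone. Dnmt3b had 2490.2 and 2564 against 2034 and 1837 and 2004 and 1997 in the control. Zfp57, a zinc finger protein that guards methylation at imprinted loci, had 6266 and 6249.9 against 4833 and 4899 and 4779 and 4803 (0.36 ± 0.027, adjusted p = 4.89e-05). Its partner Trim28 had 0.22 ± 0.042 (adjusted p = 0.0128). Dnmt3l, the cofactor of the de novo enzymes, had 50.4 and 56.7 against 19.5 and 26.2 (1.20 ± 0.29, adjusted p = 0.0347), but the control had 49.9 and 41.6 and the call was lost with any library left out (highest adjusted p 0.163). Zfp57 and Dnmt3b kept theirs.

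Imprinted genes, which are expressed from 1 parental copy and often flank CTCF sites, were called in 6 of 24 cases. That is 25%, against 6.23% of all tested genes. The list had no common direction, with 3 calls higher and 3 lower, 12 positive and 12 negative differences and a median of 0.04. With the 4 libraries alone in the fit, 2 were called higher and 2 lower. The noncoding RNAs of the Dlk1-Meg3 domain rose: Meg3 had 4894 and 4546 against 3537 and 3319.5 and 3413 and 3112 in the control (0.46 ± 0.054, adjusted p = 0.001). Rian had 0.25 ± 0.042 (adjusted p = 0.00674) and Mirg 0.59 ± 0.11 (adjusted p = 0.00901). Igf2r, the receptor that clears IGF2, had 3267 and 3238 against 3897 and 4153 and 3287 and 3301 in the control (-0.31 ± 0.037, adjusted p = 0.00125). Gnas fell by 0.32 and Grb10 by 0.27 (adjusted p = 0.00325 and 0.0333). Meg3, Igf2r and Gnas kept their calls with each library left out, while Rian, Mirg and Grb10 did not.

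Each list of lineage genes gave 3 calls or fewer. The shares called were 9.09% (neural), 12.5% (mesoderm), 20% (primitive endoderm), 0% (trophoblast) and 16.7% (germline), against 6.23% of all tested genes. In lists this short, 0 or 1 call does not set a list apart. Tubb3, a neuronal tubulin also present in stem cells, had 1746 and 1827 against 1175 and 1171 and 1381 and 1409 in the control (0.61 ± 0.046, adjusted p = 5.56e-05), the only call among 11 neural genes tested. T was the only call among 8 mesoderm genes. In primitive endoderm 2 of 10 genes fell, the matrix genes Lamb1 (-0.45, adjusted p = 0.00769) and Sparc (-0.17, adjusted p = 0.0207), neither of which kept its call in every fit with a library left out. Of the 10, 9 had a negative difference, with a median of -0.44. Of 10 trophoblast genes 0 were called, 9 had a negative difference and the median was -0.31. Of 18 germline genes Dazl, an RNA-binding protein of germ cells, rose by 0.34 ± 0.055 (adjusted p = 0.00542), Tuba3a rose by 0.29 (adjusted p = 0.000502) and Taf7l fell by 0.99 (adjusted p = 0.0131), a call lost in at least 1 fit with a library left out. The control libraries had 2152 and 2142 for Dazl, above the mutated (2002 and 2059) and the wild-type (1707 and 1501) values.

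Signalling pathways had calls in both directions. Of 18 Wnt genes 1 rose and 2 fell (16.7% called, against 6.23% of all tested genes). Tcf7l1, a repressor, had 0.40 (adjusted p = 0.011), Lrp5, a co-receptor, -0.25 (adjusted p = 0.0163), and Dkk3 -0.78 with 346 and 324 against 578 and 576 (adjusted p = 0.00317). Of 22 BMP and Nodal genes Id3 rose, the ligand gene Bmp7 fell by 0.40 and the repressor gene Skil by 0.38 (adjusted p = 0.0482 and 0.00126), so 13.6% were called. Etv1 was the only call among 19 genes of the FGF-ERK response (0.61, adjusted p = 0.0115). Of 22 p53 targets Rrm2b fell by 0.66 and Cdkn1a, the p21 inhibitor, by 0.28 (adjusted p = 0.0147 and 0.00246), and of 24 mitotic genes Ccnb2 fell by 0.24 and Bub1b by 0.15 (adjusted p = 0.00565 and 0.0184). Dkk3, Skil, Cdkn1a and Ccnb2 kept their calls with each library left out. Tcf7l1, Lrp5, Id3, Bmp7, Etv1, Rrm2b and Bub1b lost theirs in at least 1 of these fits.

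The other lists had 3 calls or fewer, apart from the large family of Zfp genes. Over all tested genes 6.23% were called, 3.49% higher and 2.73% lower. In the NuRD complex 1 of 15 genes rose (Hdac2, 0.16) and 1 fell (Mbd2, -0.41), or 13.3%. The interferon list had 2 rises of 16 (Ddx58 and Ifitm1, 12.5%) and the antigen presentation list 2 of 14 (Calr and Pdia3, 14.3%), and none of these 6 calls held in every fit with a library left out. The Zfp genes had 14 rises and 2 falls among 346 tested (4.62% called), and ribosomal protein genes 1 rise and 2 falls of 88 (3.41%). Both shares called lay below that of all tested genes. Collagens and laminins had 1 fall of 23, Lamb1, and histone genes 1 rise of 9, H1f10 (11.1%). The fibroblast list had 1 fall of 3, Pdgfrb (55.2 and 43.5 against 85.9 and 88.4, adjusted p = 0.0379), a call lost in at least 1 fit with a library left out. No call was made among 6 Y-linked, 15 clustered protocadherin or 11 Hox genes tested, nor for Zfp750, the 1 gene of the 2-cell-like list that was tested. At the share of all tested genes, lists this short can hold no call, so the absence of calls does not set them apart. Protocadherins are clusters whose promoter choice is known to depend on CTCF. Their median difference was 0.27, and Pcdhgc3, the member with the highest level, had 849 and 832 against 915 and 927 (adjusted p = 0.422).

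**Figure D4:**
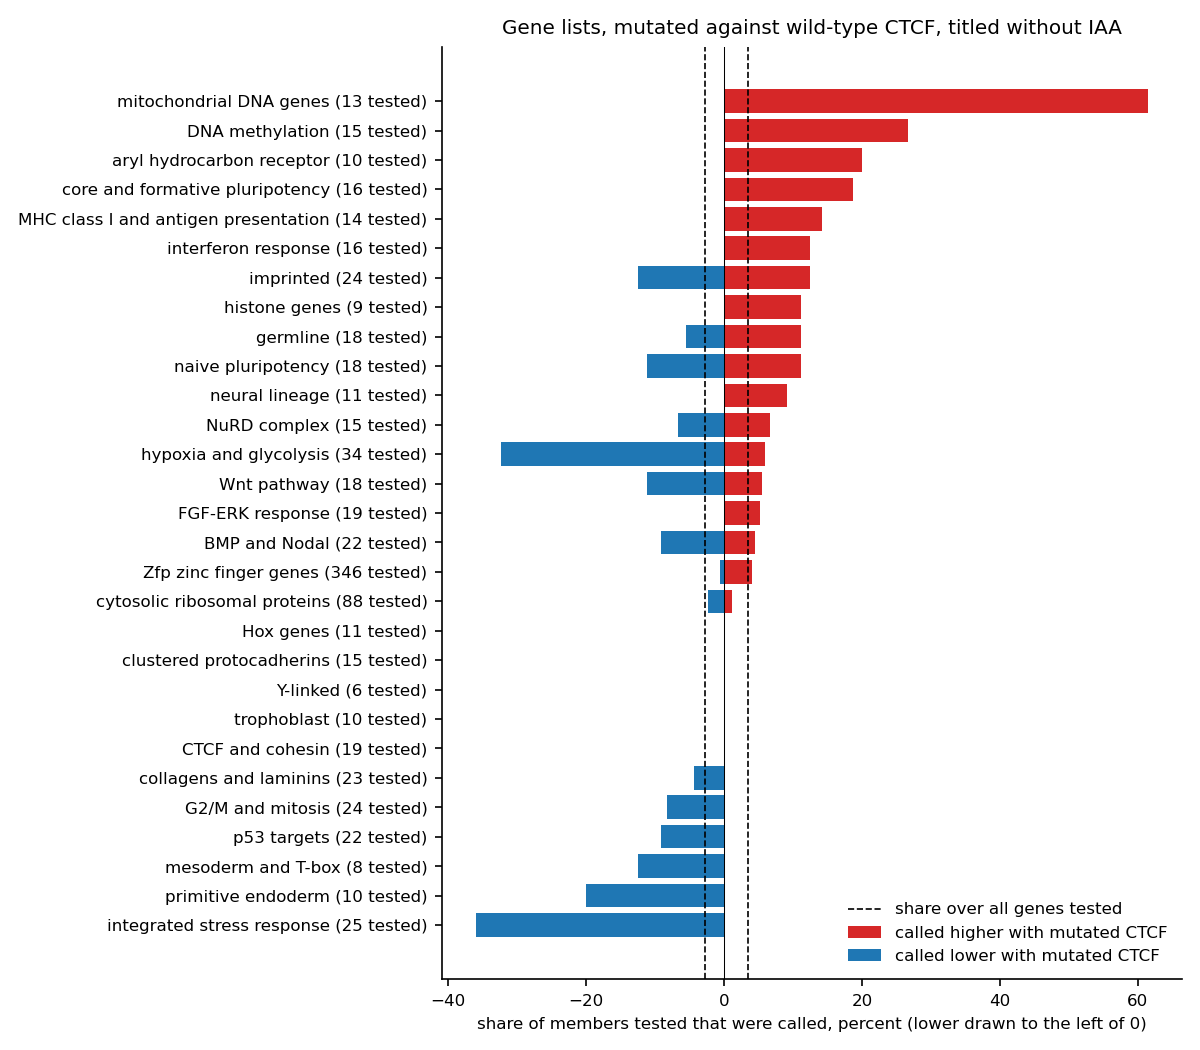
Share of the tested members of each list that were called higher (red, to the right) or lower (blue, to the left) with mutated CTCF, in percent, for lists with at least 5 members tested. The dashed lines are the shares over all genes tested, 3.49% higher and 2.73% lower, and the mitochondrial, integrated stress response and hypoxia lists extend farthest.

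The next comparison asked whether the genes that differ are those that respond to loss of CTCF. In a separate table of cells with the CTCF AID genotype and no construct, 609 of 13699 genes (4.45%) were called and at least 2-fold changed after 12 h of IAA, 174 up and 435 down. None of those libraries enters the comparison of the constructs. Of the 169 up genes tested here, 19 were higher and 3 lower with mutated than with wild-type CTCF without IAA, with a median difference of 0.11. Of the 410 down genes 5 were higher and 7 lower, with a median of -0.09. The up genes were thus called in 13.0% and the down genes in 2.93% of cases, against 6.23% of all genes. With the sets chosen by adjusted p alone, the shares were 15.1% of 1282 up genes and 9.42% of 1125 down genes, of which 74 were lower and 32 higher, so the share for down genes then lay above that of all genes. Relative to the control mean, the median of the up genes was 0.17 and 0.12 in the mutated and -0.020 and -0.024 in the wild-type libraries. With IAA it was 0.81 and 0.91 in the control, 0.50 and 0.48 with wild-type and 0.67 and 0.62 with mutated CTCF. For the down genes the medians without IAA were -0.070 and -0.052 with mutated and 0.032 and 0.040 with wild-type CTCF, against -0.74 and -0.68 in the control with IAA.

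Several genes named above belong to these sets. Aoah, Aox3, Sstr2, Dppa3, Etv1, Cyp1a1 and Ifitm1 were up genes that were higher with mutated CTCF, and Tgm2 and Pdgfrb were down genes that were lower. H1f10 and Parm1, down genes, were higher, and T, an up gene in that table, was lower. A response to IAA itself cannot be told apart from one to loss of CTCF in that table.

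The same direction was seen against IAA in the control cells of this table, in which 3530 of 13938 genes were called (25.3%). Their 4 libraries are not among those compared between the constructs, but the fit takes each gene's spread from all 12 libraries. Genes with a small spread are therefore more readily called in both, so the shares of called genes below are not independent of the choice. Of the 487 genes higher with mutated CTCF, 285 (58.5%) rose with IAA in control cells and 24 fell, while 12.8% of all tested genes rose. Of the 381 genes lower with mutated CTCF, 200 (52.5%) fell with IAA and 32 rose, while 12.5% of all genes fell. The median IAA effect in control cells was 0.18 over the genes higher and -0.21 over the genes lower with mutated CTCF. Aoah went from 138 and 140.2 to 526 and 537 with IAA in control cells, and Syce1 from 216 and 205 to 499 and 629. Tgm2 went from 414 and 382 to 140.0 and 153 and Tgfbi from 201 and 253 to 96.4 and 98.3. In these 4 genes the mutated libraries without IAA lay between the control libraries without IAA and with it. Id3 went the other way, from 117 and 91.0 to 31.5 and 32.7 with IAA.

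Against the control without IAA, more genes were called with the mutated than with the wild-type form. Of 13938 genes 774 (5.55%) differed between mutated CTCF and control and 125 (0.897%) between wild-type CTCF and control. These comparisons share libraries with the direct one, so their values are only set side by side. For the 487 genes called higher the median difference from control was 0.21 with mutated and -0.060 with wild-type CTCF. For the 381 called lower it was -0.23 and 0.097. Leaving out control replicate 1 gave 392 and 59 calls over all genes, and leaving out control replicate 2 gave 394 and 76.

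Fewer genes were called between the constructs in the libraries with IAA. IAA is added to remove the cell's own CTCF, and these RNA data do not measure that protein. With IAA 314 genes were called between mutated and wild-type CTCF (2.25%), 150 higher (1.08%) and 164 lower (1.18%). Of the 868 genes called without IAA, 681 (78.5%) had the same sign with IAA, against 59.5% of all tested genes. Of these 868, 132 were called in the same direction and 8 in the opposite one. The median of the genes called higher was 0.27 without and 0.07 with IAA, and that of the genes called lower -0.33 and -0.11. Since the genes were chosen on the first value of each pair, some shrinkage is built into the choice.

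Slc16a3 kept its difference, with 135 and 119.9 with mutated and 365 and 361 with wild-type CTCF under IAA (-1.50 ± 0.13, adjusted p = 0.000393). Dppa3 had 826 and 765 against 354 and 350.1 (1.17 ± 0.10, adjusted p = 0.000322), Tgfbi 44.0 and 67.8 against 129 and 115 (-1.14 ± 0.20, adjusted p = 0.017) and Aoah 566 and 506 against 366 and 401 (0.48 ± 0.10, adjusted p = 0.0335). T, Id3 and H1f10 did not pass the test with IAA (adjusted p = 0.703, 0.811 and 0.774). The test of the change itself, the IAA effect with mutated minus that with wild-type CTCF, called 94 genes (0.674%), 19 positive (0.136%) and 75 negative (0.538%). It did not pass for T, Id3 or H1f10 (adjusted p = 0.154, 0.195 and 0.055). It did for Meg3, whose difference went from 0.46 to -0.24 (-0.70 ± 0.077, adjusted p = 0.00238), and for Bnip3, from -0.45 to -1.63 (-1.17 ± 0.16, adjusted p = 0.00812).

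**Figure D5:**
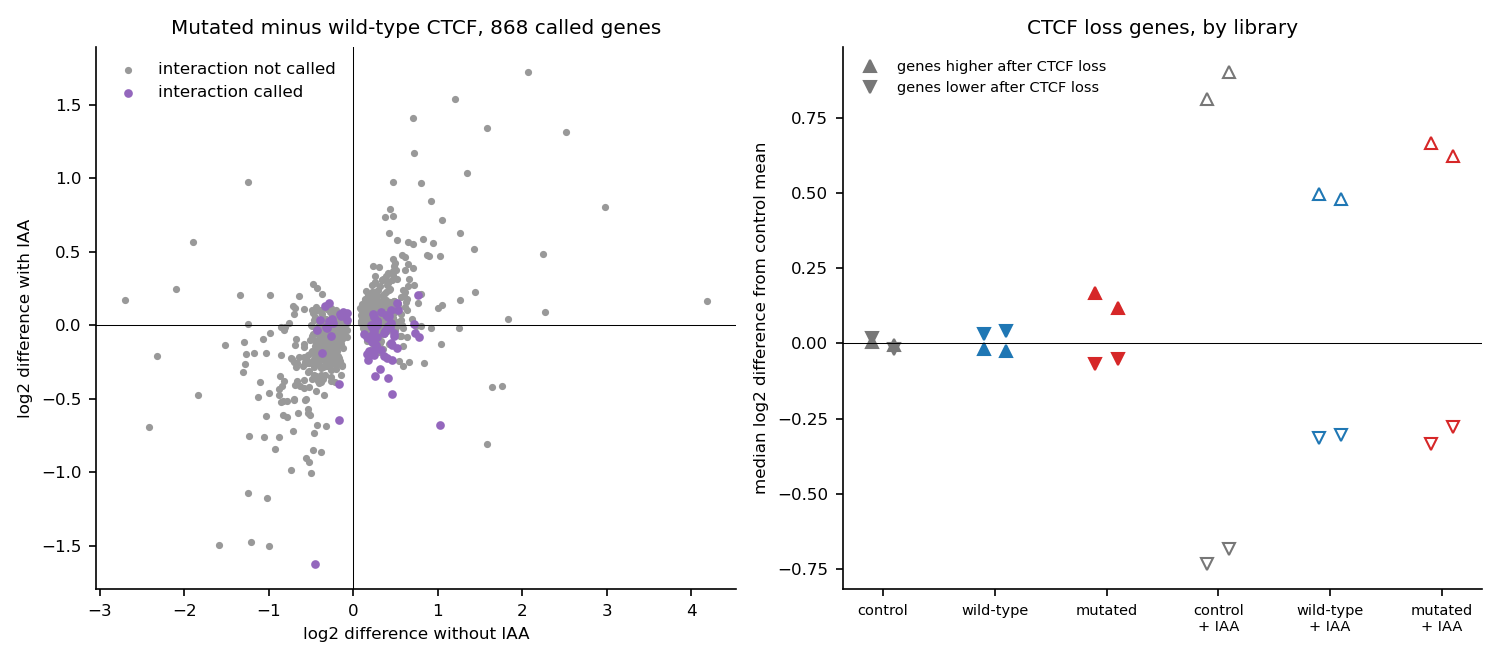
Left, the log2 difference of mutated minus wild-type CTCF without IAA (x axis) and with IAA (y axis) for the 868 genes called without IAA, with those whose difference itself changed in purple. Right, the median difference from the control mean over genes higher (triangles up) or lower (triangles down) after CTCF loss, for each library, in which the mutated libraries without IAA lie slightly toward the IAA libraries and the wild-type ones near 0.

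Along the chromosomes, some of the called genes lay side by side. Of the 487, 68 (14.0%) lay next to a tested gene that was also called higher, while 6.83% of all tested genes had such a neighbour. For the genes called lower the values were 22 of 381 (5.77%) and 5.40%. The only runs of at least 3 adjacent genes called in 1 direction were on the mitochondrial genome, mt-Rnr1 to mt-Co1 and mt-Nd4l to mt-Cytb, 5 genes each. These mitochondrial genes, which come from shared precursors, are among the 68. Neighbours whose exons overlap, and which could share reads, were not set aside.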

How the data were processed

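RNA from 12 libraries in 6 groups was analysed. The authors deposited normalised counts per gene, a signal on a linear scale. Per the submitters' processing notes, Trim Galore, Bowtie2, STAR, RSEM, DESeq2 and the mm10 build were used. Versions, roles and strand settings are not given in the sources used here. Low values did not fall on whole multiples of a fixed step, so read counts were not recovered and no count test was run. Sequencing depth is therefore unknown. Normalisation to equal library composition means that a change common to all genes cannot be seen.

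Values were taken as log2(value + 1), genes with a mean of at least 10 were kept, and limma 3.58.1 (R 4.3.3) was fitted to all 12 libraries and 6 groups with a mean-variance trend, leaving 6 residual degrees of freedom per gene. Log2 and fold differences are on the log2(value + 1) scale, understating changes of low genes. The genes with higher or lower levels after CTCF loss came from the same fit on the deposited normalised counts of the other table, in which 1 incomplete row was dropped. Identifiers were matched to GENCODE M21 (GRCm38, 99.9% of 14970). On simulated data with 50 genes per size, 68% of 1.5-fold, 80% of 2-fold, 90% of 4-fold and 92% of 8-fold changes were recovered, with 4 false calls. The simulated noise was independent between libraries and held no effect of clone, culture or replicate. Changes below 1.5-fold were not simulated. The false calls therefore do not measure those among the genes called in the real libraries.

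Members, gene lists and the rule for named genes (15 rises and 15 falls by size among called genes, 5 label checks, and up to 6 members per list) were chosen with earlier results of these data known. Further lists in the closing section were chosen after their values were seen. Alternatives were the pseudocount, filter, scaling, fit, trend, replicate block, CTCF loss gene set and each library left out.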

Additional observations from a re-analysis of the deposited data

Results flagged for a closer look

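For 17 named genes the difference between mutated and wild-type CTCF itself changed between the libraries without and with IAA, by limma's interaction test with adjusted p under 0.05. Over all genes that test called 94 (0.674%). Values are the difference with IAA minus the difference without it, on the log2 scale. In the mitochondrial genome it was -0.60 for mt-Cytb, -0.56 for mt-Nd6, -0.54 for mt-Nd5, -0.43 for mt-Nd2 and -0.37 for mt-Nd1, which were all higher with mutated CTCF without IAA. The imprinted noncoding RNAs Meg3 and Rian had -0.70 and -0.36, and Igf2r 0.29. Zfp566 had -1.71, going from 1.03 to -0.68, Ddx58 -0.93, Zic2 -0.63 and Zfp990 -0.27. For Bnip3 it was -1.17, and for the p53 targets Ccng1 and Cdkn1a 0.28 and 0.31. Sox2 had -0.32, with 0.036 without and -0.28 with IAA, and Tfcp2l1 0.16. Bnip3, Meg3, Zfp990 and the 5 mitochondrial genes were called in all 8 fits that left out a library. Without the mean trend mt-Cytb alone of the 17 was called. With the replicate number as a block, Cdkn1a, Ddx58 and Igf2r lost this call and the other 14 were called.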

How the results depend on the processing

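The count of 868 genes depended on how the variance was estimated, through the 6 groups and the mean trend. When the fit held no library outside a comparison, the counts were 216 without IAA, 91 with IAA, 2 for wild-type against control and 186 for mutated against control. Without the mean trend they were 427, 92, 48 and 370, and 5 for the interaction. Requiring a 2-fold difference as well left 50, 29, 18 and 43, and 2 for the interaction. With a library left out, whose lone partner is assumed to vary like the other groups, they ran from 360 to 479 without IAA, 66 to 91 with IAA, 35 to 59 for the interaction, 59 to 76 for wild-type against control and 321 to 394 for mutated against control. The pseudocount, the filter, median-ratio scaling and quantile normalisation kept each count within 1.5 times, and quantile normalisation gave 49.6% of calls without IAA as higher, against 56.1%. Leaving out the genes of chromosome M, an alternative chosen after seeing the data, gave 857 calls. Leaving out the genes apart between replicates in all 3 untreated groups, also chosen after seeing the data, gave 886.

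Of the 94 called named genes 59 lost the call with only the 4 libraries, 37 without the trend, 10 under quantile normalisation and 38 to 45 with a library left out, and none turned direction in any of these fits. The median over the up genes of CTCF loss was 0.13 and over the down genes -0.073 under quantile normalisation. It ran from 0.11 to 0.14 and from -0.11 to -0.081 with a library left out. With the loss genes taken at 24 h it was 0.064 for the up genes, with adjusted p alone 0.049 and -0.055, and with genes changed 2-fold by IAA in control cells 0.22 and -0.14.

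The replicate numbers were not taken to pair the samples, since deviations of same-numbered libraries from their group means correlated at -0.06 to 0.10 over pairs of groups, highest between the wild-type and mutated groups without IAA. A fit with the replicate block called 866 genes without IAA, 245 with IAA, 82 for the interaction, 113 for wild-type and 741 for mutated CTCF against control, and Bnip3, Bmp7 and Ddx58 lost their call. Regrouping by the treatment labels could not be run, as no mutated library is labelled untreated. With 2 libraries per group, small differences in low genes were not detectable.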

Other observations

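A pair of gene lists and the members named from them were chosen after their values had been seen, so their counts and p-values describe that choice and support nothing further. Of 24 genes of cholesterol metabolism, 15 were called lower with mutated CTCF without IAA and 0 higher, with a median difference of -0.24, against 2.73% of all genes called lower. The enzymes Hmgcs1 (-0.37 ± 0.025, adjusted p = 2.4e-05 by limma) and Lss (-0.37 ± 0.041, adjusted p = 0.000734) fell, as did Insig1, a sterol sensor (-0.35 ± 0.025, adjusted p = 4.82e-05), and the sterol carrier Stard4 (-0.41 ± 0.041, adjusted p = 0.000332). Hmgcs1 had 13569.7 and 13618 in the mutated, 17462 and 17796 in the wild-type and 19164 and 20048 in the control libraries. The count of falls was 9 without mutated replicate 1, 11 without any of the other 3 libraries, 7 with the 4 libraries alone and 6 without the mean trend. With IAA, 5 were lower and 0 higher, while 1.18% of all tested genes were lower. In control cells 16 of the 24 fell with IAA, against 12.5% of all tested genes.

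Of 11 SR proteins, which select splice sites, 6 were called higher and 0 lower, with a median of 0.13. Over all tested genes 3.49% were called higher and 2.73% lower. Srsf6 had 8862 and 9060.3 against 6565 and 6536 and 6682 and 6721 in the control (0.45 ± 0.023, adjusted p = 3.42e-06 by limma), and Srsf2 12230.0 and 12118 against 9395 and 8745 and 10238 and 9729 (0.43 ± 0.034, adjusted p = 8.94e-05). The count was 4 without wild-type replicate 2 or mutated replicate 2, 5 without either other library and 3 without the mean trend. With IAA 2 were higher, against 1.08% of all tested genes. The change of the difference passed the test for Srsf6 (adjusted p = 0.000871) and Srsf2 (adjusted p = 0.00658).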
